A study of Caenorhabditis elegans with 3 samples.

Results

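Egg activation is the change of a mature oocyte into an embryo that follows sperm entry in Caenorhabditis elegans. The 8 genes described here act at the oocyte surface, in the cortex beneath it and in the eggshell laid down after fertilization. They were chosen by gene name, with earlier results of these data known: egg-1, egg-2, egg-3, egg-4, egg-5, egg-6, chs-1 and mbk-2. Each name occurred once among the 46739 genes of the count table, and all 8 genes are among its 20362 protein-coding genes.

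The samples were germlines dissected from N2 worms, the wild-type laboratory strain, with no mutation or treatment, and their RNA was sequenced in 3 libraries that form 1 group. The labels give no stage, sex or temperature and do not say whether the numbered samples came from separate animals, so the spread between libraries may be technical. The series asks which transcription factors the germline expresses. With 1 group there is no contrast between conditions, and what follows describes levels, their order and their spread.

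The cortical machinery is known from genetics in this worm. EGG-1 and EGG-2 are oocyte membrane proteins with LDL-receptor repeats that are needed for fertilization. Beneath the membrane, EGG-3 holds the chitin synthase CHS-1 and the kinase MBK-2 at the cortex. EGG-3, EGG-4 and EGG-5 resemble protein tyrosine phosphatases but lack catalytic activity, and EGG-4 and EGG-5 bind and restrain MBK-2 until the meiotic divisions. MBK-2, a kinase of the DYRK family, then phosphorylates oocyte proteins that have to be removed before mitosis. EGG-6, a secreted or membrane-bound leucine-rich repeat protein, is needed for the eggshell and also for the apical matrix of epithelia.

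The libraries held 14523486, 15566299 and 16656171 counts in replicates 1, 2 and 3. CPM are counts scaled to these library totals, and the 3 counts that a count of 0 allows stood for 0.207, 0.193 and 0.18 CPM, which covers counting error only. The libraries were not uniform in their sperm and somatic transcripts. The summed level of 6 sperm markers was 4962, 586 and 1484 CPM in replicates 1, 2 and 3, and that of 4 cuticle markers 526, 39.2 and 101.9 CPM. All 4 germline markers were detected in every library. Of these, rme-2 had 4243, 5578 and 5327 CPM, while glh-1 (1533, 1288 and 2231 CPM), pgl-1 (387, 318 and 443 CPM) and gld-1 (205, 168 and 187 CPM) were each lowest in replicate 2. Of 5 intestine markers, vit-2 and vit-6 made up nearly all of 229, 1001 and 525 CPM, while elt-2, the gut regulator, stayed at or below 0.18 CPM. The 4 body muscle markers, all detected, summed to 406, 245 and 239 CPM, and the 5 sheath and spermatheca markers, all detected, to 301, 377 and 228 CPM.

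All 8 genes were transcribed in every library. Each had at least 1 CPM in all 3, as did 40.2% of protein-coding genes. At least 100 CPM in all 3 was reached by 7 of the 8, a level that 7.03% of protein-coding genes attained. The exception was egg-4, just under that level in replicates 1 and 2. The median over the genes of mean log2(CPM + 1) was 8.03 (SD of the library medians 0.07, n = 3), against 0.66 for all protein-coding genes and 5.01 for the 8194 detected ones. Together the 8 genes took 0.315%, 0.391% and 0.334% of the protein-coding counts in replicates 1, 2 and 3.

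Among the 8 gene models, 4 lay on chromosome I, which holds 14.2% of positioned protein-coding genes, 2 on III, 1 on II and 1 on IV. None was X-linked. The models of both paralogous pairs are set out here because counts within a pair may be split between similar copies. Only exon and protein lengths were compared, and sequence identity was not computed. On WBcel235, egg-1 (WBGene00015083) spans 5728180 to 5730159 of chromosome III on the forward strand. Its paralogue egg-2 (WBGene00019811) spans 7058527 to 7060583 on the reverse strand. Both have 5 exons. The first coding exon is 53 bases in both, and the other 4 differ in length by 3 to 6 bases, each by whole codons. The proteins have 551 residues for EGG-1 and 548 for EGG-2. The final exon, with its noncoding end, is 303 bases in egg-1 and 279 bases in egg-2.

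In the second pair the exon lengths match. On chromosome I, egg-4 (WBGene00020652) spans 3932210 to 3934813 on the forward strand and egg-5 (WBGene00020035) spans 4168984 to 4171589 on the reverse strand. The genes stand 234170 bases apart. All 5 coding exons have the same lengths in both (263, 878, 740, 290 and 88 bases), and both encode 753 residues. In exonic length they differ by 2 bases, 2362 in egg-4 against 2364 in egg-5. Reads that match both copies of a pair cannot be assigned from their sequence, and how such reads were counted is not given in the sources used here. Levels of egg-1, egg-2, egg-4 and egg-5 are therefore uncertain one by one.

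**Figure D1:**
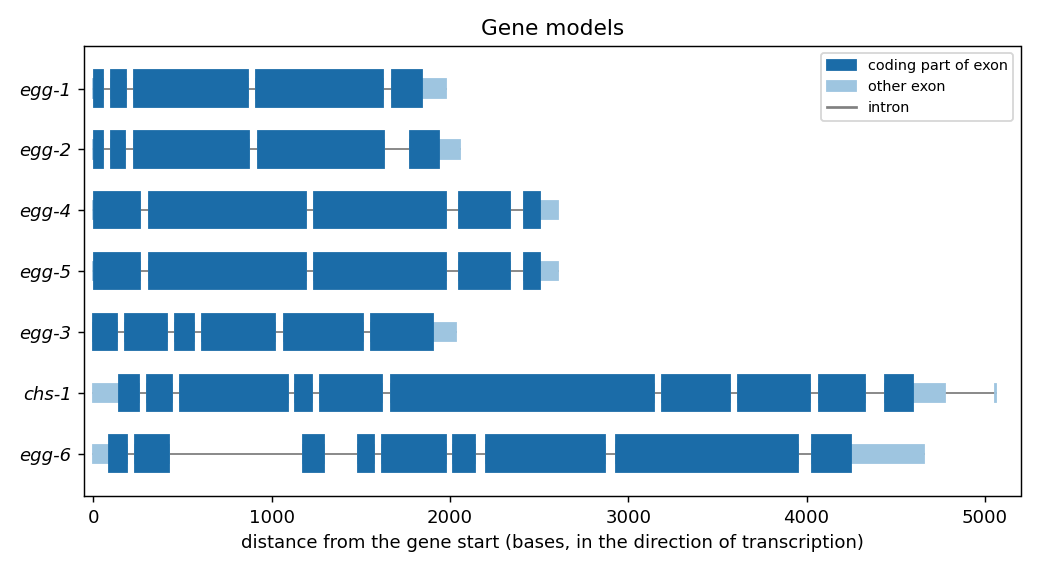
Gene models of 7 of the 8 genes, drawn in the direction of transcription from the start of each gene (x axis, bases), with coding parts of exons in dark blue, other exonic sequence in light blue and introns as lines. The coding exons of egg-4 and egg-5 have equal lengths (263, 878, 740, 290 and 88 bases), and those of egg-1 and egg-2 differ by at most 6 bases.

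The other models are single genes. egg-3 (WBGene00009701, chromosome II, 10882408 to 10884441) has 6 exons and encodes 555 residues. chs-1 (WBGene00000496, chromosome I, 7554855 to 7559916) has 2 transcripts that encode the same 1322 residues. egg-6 (WBGene00010621, chromosome I, 8676666 to 8681325) has 9 exons and encodes 961 residues. mbk-2 (WBGene00003150, chromosome IV, 13009158 to 13035961) is the largest locus by far. It spans 26804 bases and has 14 annotated coding transcripts, whose proteins run from 469 to 817 residues. Overlap with exons of other genes was small for all 8. The largest was 42 bases of egg-1 (2.34% of its exonic length) with B0244.9 on the opposite strand. egg-1 had 9902, 13006 and 12212 counts in the 3 libraries, against 177, 14 and 58 counts of B0244.9.

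The oocyte surface genes are described first. egg-1 had 682, 836 and 733 CPM in replicates 1, 2 and 3. Its mean of 750.2 ± 78.3 CPM (SD, n = 3) was rank 158 among the protein-coding genes by CPM. egg-2 had 313, 386 and 367 CPM, with a mean of 355 ± 37.9 CPM. In each library egg-1 stood above egg-2, and the ranges of the genes did not overlap. Both were lowest in replicate 1 and highest in replicate 2.

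The ratio of egg-1 to egg-2 in CPM was 2.18, 2.16 and 2.00 in the 3 libraries, a mean log2 ratio of 1.08 ± 0.07 (SD, n = 3). The direction held in 3 of 3 libraries, and the difference was many times its spread. Per exonic length the mean log2 ratio was 1.05 ± 0.07. An exact sign-flip permutation test over libraries, two-sided, gave p = 0.25, the smallest that 3 libraries allow, so no ratio of this kind can pass a threshold of 0.05. Of the counts of both genes, egg-1 took 68.5% (95% Wilson interval 67.8 to 69.3), 68.4% (67.7 to 69.0) and 66.6% (65.9 to 67.3). The shares of replicates 1 and 2 lay above that of replicate 3 by more than counting error, although by less than 2 percentage points.

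The cortical pseudophosphatase genes had fewer counts. egg-3, which anchors the complex, had 185, 204 and 187 CPM (mean 192 ± 10.7 CPM, SD, n = 3). egg-4 had 97.7, 96.1 and 121 CPM (mean 105 ± 13.7 CPM). egg-5 had 119.8, 127 and 113 CPM (mean 120.1 ± 7.11 CPM). egg-4 was highest in replicate 3, where egg-5 was lowest, so the order of these copies changed between libraries.

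The ratio of egg-4 to egg-5 in CPM was 0.816 and 0.755 in replicates 1 and 2 and 1.07 in replicate 3. The mean log2 ratio was -0.20 ± 0.26 (SD, n = 3; exact sign-flip permutation test, two-sided, p = 0.5), smaller than its spread. The copies are therefore not separated by these data. The share of egg-4 in the counts of both was 44.9% (95% Wilson interval 43.2 to 46.7), 43.0% (41.4 to 44.7) and 51.6% (50.0 to 53.2), so that replicate 3 differed from both other libraries by more than counting error. The sum of the pair was steadier, at 218, 223 and 234 CPM, a mean of 225 ± 8.17 CPM.

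CHS-1 makes the chitin of the eggshell. Its gene was the most abundant of the 8 by CPM, with 981, 1316 and 1127 CPM (mean 1141 ± 168 CPM, SD, n = 3), and rank 100 among the protein-coding genes. It was also the most variable, with replicate 2 at 1.34 times replicate 1. chs-2, the other chitin synthase gene, which is known for the pharyngeal lining, had 2.48, 2.06 and 1.26 CPM. These are 36, 32 and 21 counts, above the limit of a count of 0 in each library. Per length, chs-1 averaged 285 ± 48.3 TPM and chs-2 0.35 ± 0.102 TPM (SD, n = 3).

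The kinase gene mbk-2 was the steadiest by CPM on library totals, with 205, 202 and 187 CPM (mean 198 ± 9.92 CPM, SD, n = 3). It was highest in replicate 1 and lowest in replicate 3. Scaled to protein-coding counts it was highest in replicate 2, so its order and rank are given for library totals only. mbk-1, the other gene of this kinase pair, had 189, 223 and 227 counts. Per length, mbk-2 averaged 43.8 ± 1.35 TPM and mbk-1 5.28 ± 0.397 TPM (SD, n = 3), with ranges that did not overlap. egg-6, of the leucine-rich repeat protein, had 322, 369 and 332 CPM (mean 341 ± 25.0 CPM), lowest in replicate 1 and highest in replicate 2.

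**Figure D2:**
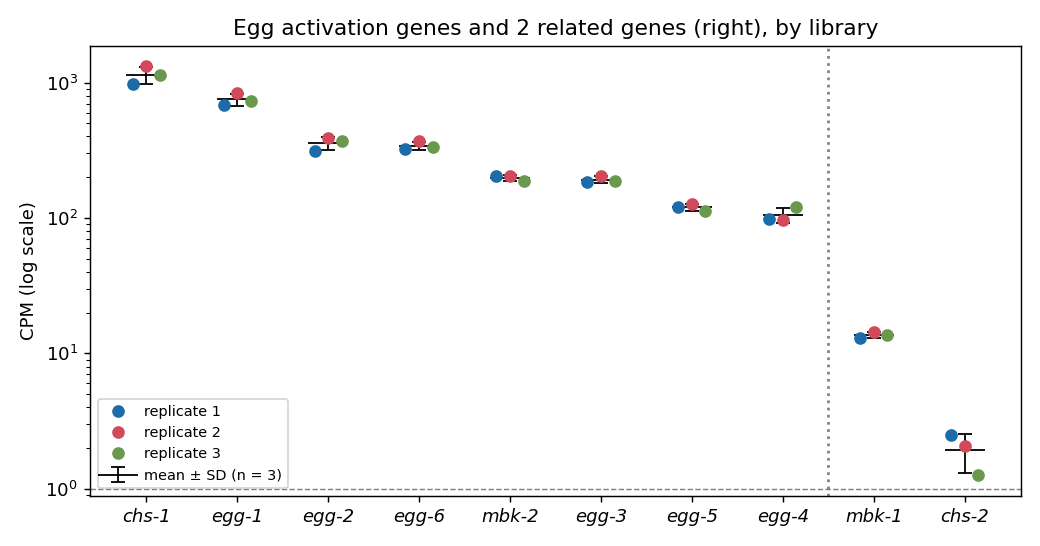
Level of each of the 8 genes and of the related genes mbk-1 and chs-2 (right of the dotted line) in CPM on a log axis, with 1 point for each library and the mean ± SD (n = 3) in black; the dashed line marks 1 CPM. The 8 genes lie between 96.1 CPM (egg-4, replicate 2) and 1316 CPM (chs-1, replicate 2), above both related genes in every library.

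CPM favour long transcripts, so levels of different genes were compared in TPM, which divides each count by the exonic length of its gene before scaling to the library. On this scale egg-1 came first, with 391, 503 and 449.9 TPM (mean 448 ± 56.3 TPM, SD, n = 3). chs-1 followed at 285 ± 48.3 TPM and egg-2 after it at 216 ± 29.3 TPM. Below them came egg-3 at 114.7 ± 8.55 TPM and egg-6 at 108 ± 10.1 TPM. The lowest were egg-5 at 54.3 ± 3.36 TPM, egg-4 at 47.6 ± 7.51 TPM and mbk-2 at 43.8 ± 1.35 TPM. The medians were 111 TPM for the 8 genes and 23.8 TPM for detected protein-coding genes.

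Some neighbours in this order were not separated. The TPM ranges of egg-1 and chs-1 were apart, as were those of egg-2 and egg-3 and of egg-6 and egg-5. chs-1 exceeded egg-2 in 3 of 3 libraries (mean log2 ratio in TPM 0.40 ± 0.08), although their ranges overlapped. egg-3 exceeded egg-6 in 3 of 3 libraries by a mean log2 ratio of 0.09 ± 0.03, a difference of 6.73 TPM that is smaller than the SD of either gene. egg-5 and egg-4 (0.20 ± 0.26) and egg-4 and mbk-2 (0.11 ± 0.25) did not differ beyond their spread.

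**Figure D3:**
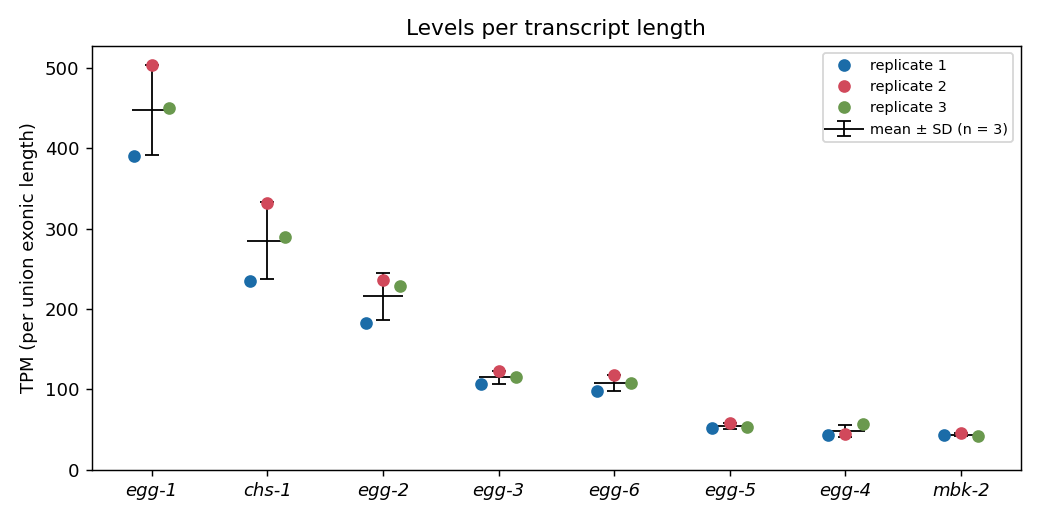
Level of each of the 8 genes per exonic length (TPM, linear axis from 0), with 1 point for each library and the mean ± SD (n = 3) in black, ordered by mean. egg-1 is highest in every library, and egg-5, egg-4 and mbk-2 lie together between 42.5 and 58.2 TPM.

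Transcripts of partners in the EGG-3 complex were unequal per length. egg-3 was at 0.452, 0.372 and 0.397 times chs-1 in TPM, a mean log2 ratio of -1.30 ± 0.14 (SD, n = 3), lower in 3 of 3 libraries (exact sign-flip permutation, two-sided, p = 0.25). egg-3 stood at 2.43, 2.73 and 2.70 times mbk-2 in TPM, a mean log2 ratio of 1.39 ± 0.09 (exact sign-flip permutation, two-sided, p = 0.25).

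The place of mbk-2 in the order rests on which of its transcripts the germline uses, which counts per gene do not show. Its union of exons is 4843 bases, its longest transcript 3620 bases and its shortest 1410 bases, and these lengths gave 43.8, 58.1 and 150.3 TPM. With the shortest, egg-3 was lower than mbk-2, with a mean log2 ratio of -0.39 ± 0.09 in TPM. The shortest model has 1407 coding bases of its 1410, so almost no noncoding ends, while the counts came from all exons of mbk-2. Its 150.3 TPM is therefore an upper bound. In CPM the genes were level, with a mean log2 ratio of -0.04 ± 0.09.

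The 8 genes varied little between libraries. The highest library exceeded the lowest by a factor of 1.10 (mbk-2 and egg-3) to 1.34 (chs-1) in CPM, with a median of 1.19. This factor was under 1.5 for all 8, as for 70% of detected protein-coding genes. Among genes with at least 100 CPM in every library it was under 1.5 for 7 of 7 of the set and 90.6% of all. The median factor over the genes with at least 100 CPM was 1.20, close to that of the 8 genes. The SD was at most 14.7% of the mean CPM (chs-1), counting error included. In edgeR's fit without groups over 9069 genes, the biological coefficient of variation estimates the spread left after counting error. It was between 0.20 and 0.24 for each of the 8, above the SD over the mean of every one. edgeR draws these values towards the trend, which was 0.27 to 0.30 at their level. They are therefore not the observed spread, and do not show that the 8 genes are steadier than others of like level.

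The libraries differed in a shared direction for most of the set. Of the 8 genes, 6 were highest in replicate 2, all but egg-4 and mbk-2, against 32.2% of detected protein-coding genes. Among genes with at least 100 CPM in every library, which leave out egg-4, it was 6 of 7 against 29.1%. The median difference of replicate 2 minus replicate 1 was 0.17 in log2(CPM + 1) for the 8 genes and 0.05 for detected genes. Against replicate 3 it was 0.14 for the 8 genes and -0.08 for detected genes. This difference depended on the scaling. It was 0.29 for the 8 genes and 0.06 for detected genes with TMM, 0.25 and 0.03 with DESeq2 size factors, and 0.21 and -0.02 on protein-coding totals. The differences ran from -0.02 in egg-4 to 0.42 in chs-1 for replicate 2 minus replicate 1. The count was 6 or 7 of 8 under 3 other scalings, while the share of detected genes highest in replicate 2 was 39.3% to 47.8%, so the scaling sets a good part of that background.

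Lowest in replicate 1 were 5 of the 8 genes, against 42.3% of detected protein-coding genes. Among genes with at least 100 CPM in every library it was 5 of 7 against 43.4%. With so few genes, these counts do not stand apart from the shares. Replicate 2 was also the library in which all 6 sperm markers were lowest and in which 3 of the 4 germline markers were lowest. The remaining germline marker, rme-2, was highest there and lowest in replicate 1 (4243, 5578 and 5327 CPM in replicates 1, 2 and 3). Of the 5 intestine markers, vit-2 and vit-6 were highest there, while ifb-2 (3.30, 0.642 and 2.10 CPM) and elt-2 (0.138, 0 and 0.18 CPM) were lowest there. The ribosomal RNA share was 7.24%, 9.04% and 4.61% in replicates 1, 2 and 3, and the share of mitochondrially encoded protein genes was 0.914%, 1.40% and 0.659%. The part of any of these in the levels of the 8 genes was not tested. The RNA came from whole dissected germlines, so more oocytes in a sample and more transcript in each oocyte cannot be told apart.

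**Figure D4:**
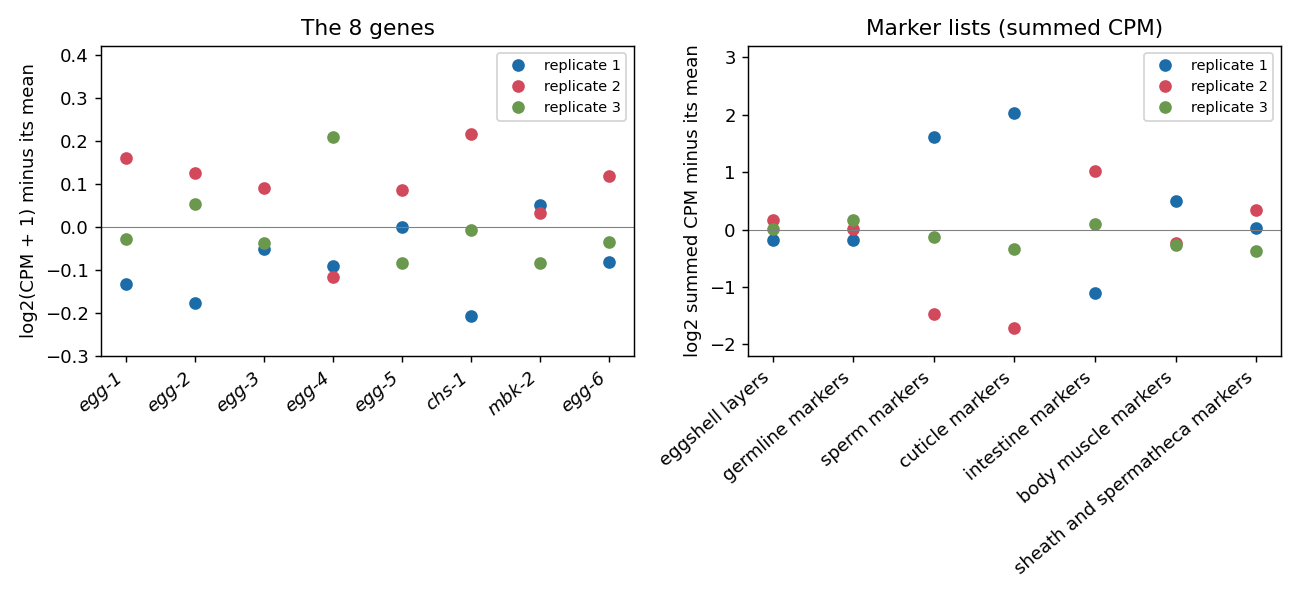
Left, log2(CPM + 1) of each of the 8 genes in each library minus the gene's mean over the 3 libraries. Right, the same for log2 of the summed CPM of eggshell genes and of markers of germline, sperm, cuticle, intestine, body muscle, and sheath and spermatheca, on a wider axis; 6 of the 8 genes are highest in replicate 2, where all 6 sperm markers are lowest.

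By distance between library profiles, the detected genes of like level nearest to the median profile of the 8 were mtx-1, R11H6.2 and catp-8. The distances over the 3 libraries were 0.01, 0.02 and 0.02 in centred log2(CPM + 1). mtx-1 had 222, 254 and 233 CPM. With 3 libraries such a match is easily met: of 999 candidate genes, 688 lay nearer to the median profile than egg-4, the member farthest from it.

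Genes that work with the 8 were present in most cases, and their levels are given per exonic length. The lists were chosen with earlier results of these data known. All 15 genes of a list of MBK-2 targets and partners were detected. The median was 111 TPM for the 8 genes and 94.2 TPM for this list. By CPM the highest was cyb-3, a B-type cyclin gene, with 488, 539 and 489.7 TPM. The lowest was cul-3, a scaffold of the ubiquitin ligase that removes MEI-1, with 14.6, 11.8 and 13.7 TPM. Of the targets of MBK-2, oma-1 had 174, 198 and 209 TPM, oma-2 had 327, 342 and 323 TPM and mei-1 had 73.8, 81.4 and 76.3 TPM. cdk-1, whose kinase acts upstream of MBK-2, had 177, 224 and 222 TPM. oma-1, oma-2, mei-1 and cdk-1 each exceeded mbk-2 on union exonic length in every library. mei-1 did not exceed the 150.3 TPM of mbk-2 on its shortest transcript, which is an upper bound for mbk-2. Not all of the list exceeded mbk-2: meg-3 (30.2, 33.4 and 30.7 TPM), cul-2, pptr-1 and cul-3 were below mbk-2 on union exonic length in every library. The remaining genes of the list were above it.

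The route to chitin was also transcribed. All 5 genes of a list for the precursor of chitin were detected, with a median of 312 TPM. gfat-2, which encodes the enzyme of the first step, had 495, 522 and 611 TPM. gna-2, an acetyltransferase gene needed for the eggshell, had 425, 650.4 and 525 TPM, lowest in replicate 1 and highest in replicate 2 as chs-1 was. Its relative gna-1 was the lowest of the list at 3.13, 2.23 and 3.19 TPM.

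Eggshell layer genes were all detected, 8 of 8, with a median of 1359.6 TPM. By CPM their extremes were perm-4, with 6704, 9199 and 8497 TPM, and perm-1, with 70.4, 77.6 and 81.9 TPM. Of these 8 eggshell genes, 7 were highest in replicate 2 by CPM, against 32.2% of detected protein-coding genes. Under the 3 other scalings it was 8 of 8, against 39.3% to 47.8%. For cortical granule exocytosis, by which eggshell material is released, 4 of 5 symbols were matched and all 4 were detected. The securin gene ify-1 was the highest by CPM, with 839, 955 and 854 TPM, and the caveolin gene cav-1 the lowest, with 10.03, 17.5 and 12.7 TPM. The separase gene sep-1, matched by its identifier, had 49.7, 49.4 and 55.2 TPM.

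The sperm partners of these oocyte genes were mostly near the detection limit. Of 10 listed genes that act on the sperm side of fertilization, 9 were matched and 4 were detected, with a median of 1.66 TPM. The highest was spe-11, which encodes a sperm protein needed for egg activation, with 44.9, 6.04 and 23.5 TPM. In replicate 1 it therefore stood above egg-4 and mbk-2, at 42.5 and 43.6 TPM on union exonic length, and in replicates 2 and 3 below all 8 oocyte genes. The order with mbk-2 rests on that length, as the longest mbk-2 transcript gave mbk-2 a mean of 58.1 TPM. The lowest was spe-42, a sperm membrane protein gene, with 0.306, 0.191 and 0.26 TPM. All 9 were lowest in replicate 2 by CPM.

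**Figure D5:**
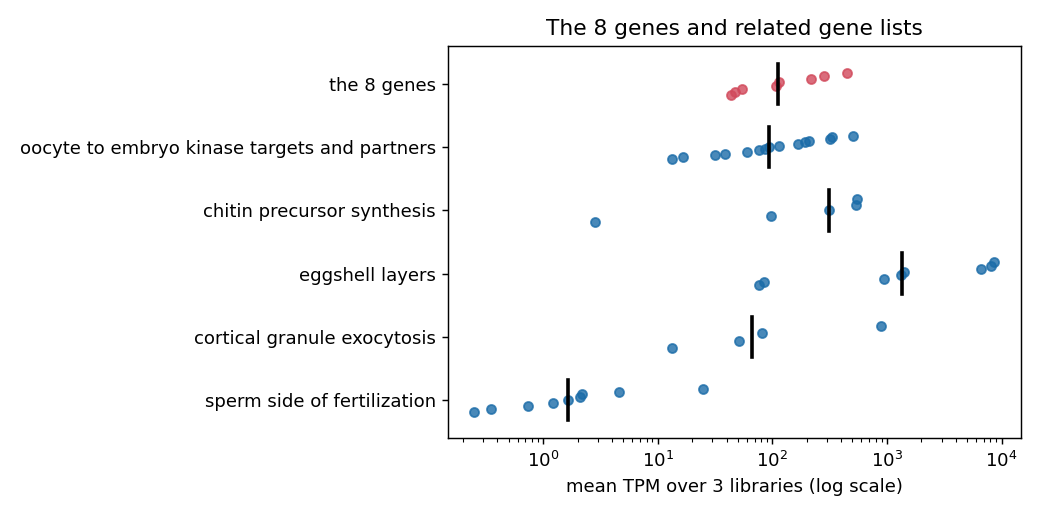
Mean TPM over 3 libraries (log axis) of the 8 genes (top, red) and of each gene in 5 related lists (blue), with the median of each as a black bar. The medians are 111 TPM for the 8 genes, 312 TPM for chitin precursor synthesis and 1.66 TPM for the sperm side of fertilization.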

How the data were processed

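The RNA of 3 dissected wild-type germline samples was treated as 1 group. The authors deposited unnormalised counts for each gene and library. STAR, featureCounts and the build WBcel235 come from the submitters' processing notes; the sources used here do not give versions, annotation release, strand setting or multi-mapping rule. Per the labels' protocols, the library kit was Clontech's SMART-Seq for very small RNA amounts.

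CPM were computed on each column total, and TPM on union exonic length from the Ensembl release 115 annotation of WBcel235; 255 genes without a length (0.0515% of counts) had no TPM. Dispersion came from edgeR 4.0.16 without groups, after filterByExpr and a test on simulated data. Alternatives used TMM, DESeq2 1.42.0 size factors, protein-coding totals, another pseudocount, other lengths, CPM minima and leaving out each library. Library pairs differed beyond sampling noise (chi-square per degree of freedom 78.3 to 138), more than repeated sequencing of 1 library would give. This is no test of library quality, and all 3 were kept.

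Named genes were the 8 members, mbk-1, chs-2, the highest and lowest of each list, and the 3 nearest profiles; others were chosen after their values were seen. Members and lists were chosen with earlier results of these data known.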

Additional observations from a re-analysis of the deposited data

How the results depend on the processing

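All 8 genes were detected at CPM minima of 5 and 10, under TMM, DESeq2 and protein-coding scaling, in 2 of 3 libraries and without any 1 library; 7 were at a minimum of 100. The median level was 8.14 in log2(CPM + 1) on protein-coding totals, which leave out ribosomal RNA, in place of 8.03, and 7.99 to 8.06 with a library left out. The egg-3 over mbk-2 log2 ratio of 1.39 (1.36 to 1.44 with a library left out) changed direction to -0.044 in CPM and -0.39 on the shortest mbk-2 transcript, a length chosen after seeing the data. That transcript model is almost all coding sequence, so -0.39 is a limit set by the highest level of mbk-2. The ratio was 0.97 on the longest transcript. The median biological coefficient of variation of 0.21, which edgeR draws towards the trend, was 0.20 to 0.30 with a library left out, highest without replicate 3. egg-1 over egg-2 and egg-3 over chs-1 kept their direction under the alternatives run, at 1.06 to 1.12 and -1.38 to -1.24 with a library left out. The mean of egg-4 over egg-5 stayed negative, at -0.35 to -0.10 with a library left out. Its direction differed between single libraries, so these means do not separate the copies. In CPM not divided by length, egg-3 over chs-1 was -2.56 in place of -1.30. A level per transcript windows found in no other gene was not run, as it needs transcript sequence not used here. No paired analysis was possible because there is 1 group.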
